A study of Rattus norvegicus with 9 samples.

Results

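The histone genes measured here are the genes typed as mRNA in the deposited count table whose symbol starts with Hist and a cluster number, H1f, H2af or H3f3, and whose counts over the 9 rats sum to at least 9. By this rule 42 of the 37209 genes of the table, or of its 23422 genes typed as mRNA, were histone genes. A further 5 genes matched by name but lay under the minimum, with Hist1h2bl closest to it at a sum of 5 counts, and H1fnt, H2afj, H2afb3 and H1foo at 4, 3, 0 and 0 counts. The member closest to the minimum was Hist1h2ac, with a sum of 12 counts. The 34 genes named Hist are taken as replication-dependent histone genes (4 for H1, 13 for H2A, 10 for H2B, 3 for H3 and 4 for H4) and the 8 named H1f, H2af or H3f3 as replacement histones (2 for H1, 4 for H2A and 2 for H3).

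The RNA came from the prefrontal cortex (PFC) of male Wistar rats aged 14 weeks, 3 rats in each of 3 groups. Control rats (A1, A2 and A6) were left with their mothers until weaning. MS rats (B3, B4 and B6) had undergone maternal separation for 4 h per day from postnatal day (PND) 1 to PND 21. MS+EA rats (C3, C10 and C16) had undergone the same separation and then received electroacupuncture (EA) at GV20 and GV29 every other day from PND 61 to PND 81. By the study's methods and labels the anaesthesia given for EA was also given to the other groups. No sham EA group was sequenced, so EA cannot be told apart here from needling and handling. All comparisons rest on 3 rats against 3. The p-values of edgeR measure the spread between rats within groups, estimated over the rats of all 3 groups. By the paper's methods, dams were assigned to control or separation, and separation kept a mother from her whole litter. The litter of each rat is not given in the sources used here, so rats of a group may be littermates. The p-values therefore need not reflect the spread between litters.

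Histones package DNA into nucleosomes, each made of the core histones H2A, H2B, H3 and H4, with the linker histone H1 bound to the DNA between them. Replication-dependent histone genes lie in clusters, lack introns, are transcribed mainly in S phase and give mRNAs that end in a stem-loop instead of a poly(A) tail, although some also give polyadenylated mRNAs in cells that no longer divide. Replacement histones such as H3.3 and H2A.Z come from solitary genes with introns and poly(A) tails, are made at all phases of the cell cycle and are the main source of new histone in neurons, which do not divide. The libraries were made after depletion of rRNA, a method that keeps mRNAs without a poly(A) tail.

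Library totals lay between 16153292 and 19007907 counts in Control, between 16106381 and 17243320 in MS and between 12479905 and 14913736 in MS+EA, so the MS+EA libraries were the shallowest 3 of the 9. The share of counts on lncRNA genes was 0.798 to 0.908% in Control, 0.852 to 0.964% in MS and 0.976 to 1.13% in MS+EA. Levels are given in CPM (counts per 1000000 counts of the library) after TMM scaling, which is not per length, so levels of different genes are not ranked. Fold changes, standard errors (SE) and p-values come from edgeR's quasi-likelihood test with Benjamini-Hochberg adjustment over the 16837 genes that passed the filter on low counts. A gene is called changed at an adjusted p under 0.05 with a fold change above 1.5.

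Replication-dependent histone mRNAs together had their lowest mean in MS rats, and replacement histone mRNAs together had their highest mean in MS+EA rats. The summed level of the 34 replication-dependent genes was 248, 229 and 223 CPM in the Control rats, 193, 222 and 191 CPM in the MS rats and 233, 206 and 235 CPM in the MS+EA rats. Means were 233 ± 12.7, 202 ± 17.2 and 224 ± 15.98 CPM (SD, n = 3). Every MS rat lay below every Control rat, by a narrow margin for B4, while the MS+EA rats overlapped both other groups. Hist2h4a adds to this sum in MS+EA alone, and without it the MS+EA rats were at 220.1, 196 and 225 CPM (214 ± 15.2, SD, n = 3). The log2 ratio of the sums was then 0.079 instead of 0.15 in MS+EA against MS and −0.13 instead of −0.057 in MS+EA against Control. The 8 replacement genes summed to 279, 277 and 263 CPM in Control, 259.9, 309 and 286 CPM in MS and 286, 291 and 322 CPM in MS+EA. Their means were 273 ± 8.60, 285 ± 24.5 and 299.9 ± 19.5 CPM (SD, n = 3), and every MS+EA rat lay above every Control rat. This last difference rested on H3f3b, since the other 7 replacement genes summed to 166 ± 8.12, 165 ± 9.14 and 160.4 ± 8.21 CPM.

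The share of histone counts that fell on replication-dependent genes set Control apart from both other groups. It was 47.0, 45.3 and 45.9% in Control, 42.7, 41.8 and 40.1% in MS and 44.8, 41.4 and 42.1% in MS+EA. Every rat that had undergone MS, with or without EA, lay below every Control rat. For MS+EA, however, the replication-dependent sums overlapped those of Control, at 206 to 235 against 223 to 248 CPM. H3f3b, which enters the total of histone counts, was at 106 to 109 CPM in Control and 132 to 152 CPM in MS+EA. The other 7 replacement genes summed to 157 to 173 CPM in Control and 155 to 170 CPM in MS+EA, and so overlapped. The lower share in MS+EA is therefore not a difference in the replication-dependent sums alone, and the part of H3f3b in it was not tested. The smallest p that an exact permutation test (two-sided) allows at 3 rats per group is 0.1, so these sums and shares are given as descriptions. In bulk tissue fewer cells of a type and less RNA per cell cannot be told apart.

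**Figure D1:**
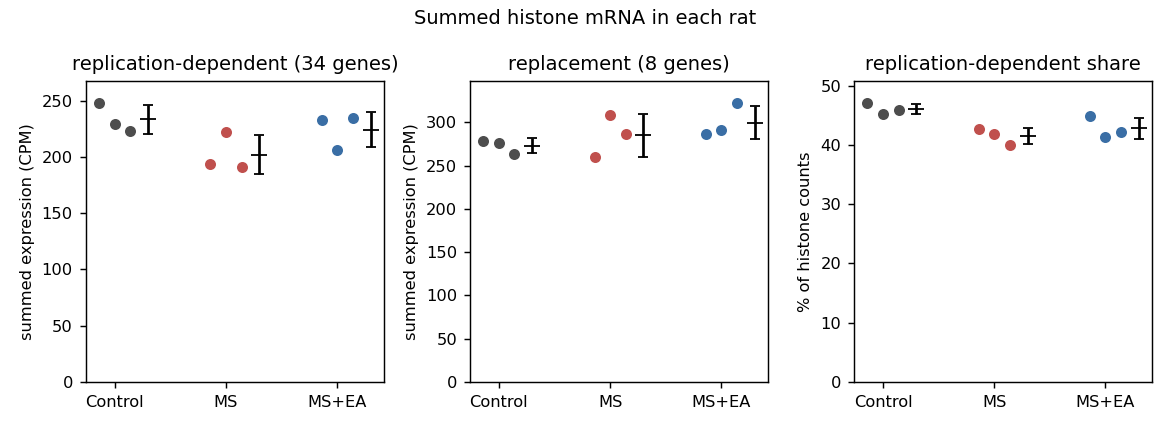
Summed level of the 34 replication-dependent histone genes (left, CPM), of the 8 replacement histone genes (middle, CPM) and the replication-dependent share of all histone counts (right, percent) in each rat, with the mean and SD of each group (n = 3). The Control rats lie at 45.3 to 47.0% in the right panel, above all MS and MS+EA rats.

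A few genes carried most replication-dependent histone counts. Hist3h2a held 26.2% of them over the 9 rats, Hist1h2bh 20.9%, Hist2h4 16.3%, Hist1h1d 8.66% and Hist1h2ao 6.33%, together 78.4%. Each of the main families other than H3 thus had a member among these 5, and the summed level of the class mainly reflects them. The replication-dependent H3 genes summed to 1.22 ± 0.356 CPM in Control, 0.984 ± 0.0425 CPM in MS and 1.14 ± 0.860 CPM in MS+EA (SD, n = 3). The 34 members that passed the filter on low counts were 26 replication-dependent and all 8 replacement genes. The 8 that did not, Hist1h1t, Hist1h2aa, Hist1h2ac, Hist1h2af, Hist1h2ba, Hist1h2bf, Hist1h3a and Hist3h3, had sums of 12 to 52 counts over the 9 rats and were not tested. Hist1h1t, Hist1h2aa, Hist1h2ba and Hist3h3, known as histones of the testis, summed to 0.268 to 1.32 CPM in the 9 rats.

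Histone H4 is made from many genes that encode the same protein, and 4 of them are members here. Hist2h4a was the member with the largest difference between groups. It had 1, 0 and 0 counts in the Control rats, 0, 1 and 0 counts in the MS rats, and 182, 145 and 127 counts in C3, C10 and C16, or 12.6, 9.72 and 10.1 CPM (10.8 ± 1.58, SD, n = 3). The MS+EA rats were thus the only rats with more than 1 count. Against a floor of 3 counts per library, the MS+EA level was at least 59.7-fold higher than that of MS and at least 61.2-fold higher than that of Control. By edgeR's quasi-likelihood test the adjusted p was 8.68e-06 against MS and 4.04e-06 against Control. Hist2h4a passed the filter on low counts through the MS+EA rats alone, so a large difference was required for it to be tested at all. DESeq2 gave an unadjusted p of 1.11e-13 against MS but left its adjusted p as NA, and against Control gave an adjusted p of 1.33e-10.

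This pattern of presence in a single group was shared with no other gene. Hist2h4a was the 1 gene of the 37209 with at most 3 counts in every rat outside MS+EA and at least 20 counts in each MS+EA rat. The same search found 0 such genes for Control and 0 for MS. These limits were chosen with the values of Hist2h4a in view.

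Hist2h4, the H4 gene with the most counts, was lower in both groups that had undergone MS. Its level was 47.6, 39.2 and 41.8 CPM in Control, 32.0, 34.02 and 29.3 CPM in MS and 35.2, 28.3 and 32.3 CPM in MS+EA. Neither MS nor MS+EA rats overlapped the Control rats, and the MS and MS+EA rats overlapped each other fully. The log2 fold change was −0.43 in MS against Control (SE 0.11, edgeR's unadjusted p 0.00142, adjusted p 0.159), 0.01 in MS+EA against MS (SE 0.11) and −0.43 in MS+EA against Control (SE 0.11, edgeR's adjusted p 0.0400). The last difference passed the adjusted p but, at a ratio of 0.744, not the fold threshold. Its adjusted p ranged from 0.00698 to 0.169 over 16 alternative analyses and was under 0.05 in 8 of them.

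The sum of Hist2h4 and Hist2h4a placed the MS+EA rats with the Control rats. It was 47.6, 39.2 and 41.8 CPM in Control, 32.0, 34.1 and 29.3 CPM in MS and 47.9, 38.0 and 42.4 CPM in MS+EA. The means of 42.9 ± 4.31, 31.8 ± 2.38 and 42.7 ± 4.95 CPM (SD, n = 3) correspond to log2 ratios of −0.43 for MS against Control, 0.43 for MS+EA against MS and −0.01 for MS+EA against Control. The sum was formed with the values of Hist2h4a in view and was not tested. H4 genes are near-identical in their coding parts, and the treatment of reads with several locations and the strand setting of the counting are not given in the sources used here. Reads of 1 H4 gene counted on another therefore cannot be told apart from expression of that gene.

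Hist1h4b and Hist1h4a overlapped between all groups. Hist1h4b was at 3.32, 3.23 and 3.61 CPM in Control, 2.86, 4.63 and 1.92 CPM in MS and 3.61, 2.55 and 4.85 CPM in MS+EA. Its log2 fold changes were −0.11, 0.22 and 0.11 (SE 0.32 each) for MS against Control, MS+EA against MS and MS+EA against Control. Hist1h4a was at 0.749, 0.366 and 0.497 CPM in Control, 0.467, 0.688 and 0.962 CPM in MS and 1.04, 0.134 and 0.795 CPM in MS+EA, with both extremes in the MS+EA group. In the RefSeq annotation of the later assembly GRCr8, Hist2h4 is H4c14 and lies between the histone genes H2ac18 and Hist2h3c2. Hist2h4a and Hist1h4a had no match there by symbol.

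**Figure D2:**
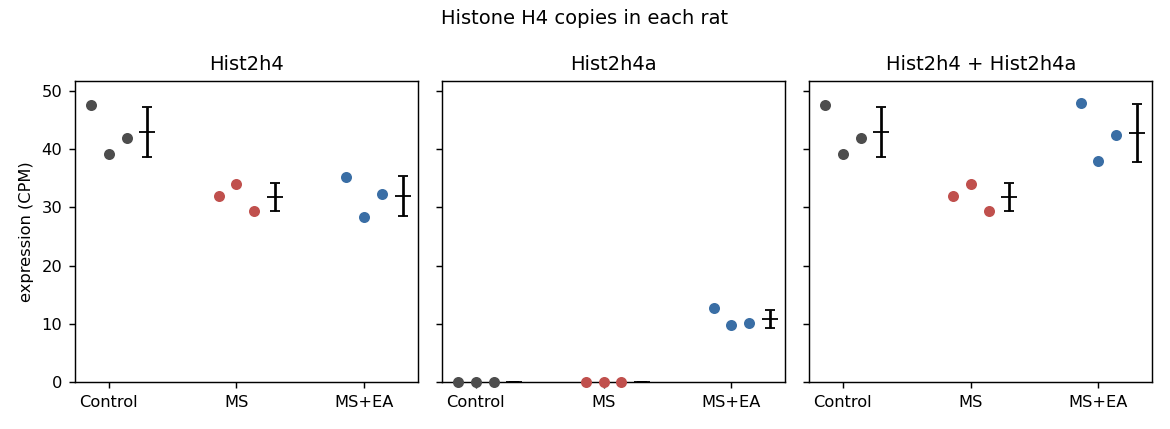
Level of Hist2h4, of Hist2h4a and of their sum (CPM) in each rat, with the mean and SD of each group (n = 3). Hist2h4a is at or near 0 in Control and MS and at 9.72 to 12.6 CPM in MS+EA, and the summed level of MS+EA lies at 38.0 to 47.9 CPM, beside 39.2 to 47.6 CPM in Control.

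H2A, which with H2B forms the dimers on the outside of the nucleosome, had replication-dependent members with lower values in MS rats. All 10 tested members had a log2 fold change below 0 in MS against Control, from −0.59 to −0.18 with a median of −0.33, while 50.3% of all genes tested were below 0 and their median was −0.00. None passed the thresholds. Over 16 alternative analyses of MS against Control, Hist1h2ak changed sign in 2 and Hist2h2ab in 1. In MS+EA against MS, 8 of the 10 were above 0 (median 0.21), and in MS+EA against Control 6 of the 10 were below 0 (median −0.06). MS rats enter both of the first comparisons, so the opposite signs are not independent of each other. Reads from stretches that are identical between H2A genes cannot be told apart, so the 10 genes need not be separate measurements.

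Hist3h2a, the H2A gene with the most counts, was at 62.1, 66.2 and 58.6 CPM in Control, 44.6, 57.1 and 53.4 CPM in MS and 58.8, 58.8 and 59.2 CPM in MS+EA. Every MS rat lay below every rat of the other groups. The log2 fold change was −0.27 in MS against Control (SE 0.09, edgeR's unadjusted p 0.0118, adjusted p 0.293) and 0.19 in MS+EA against MS (SE 0.09, edgeR's adjusted p 0.425). Hist1h2ao was at 18.9, 15.9 and 13.7 CPM in Control, 12.4, 13.1 and 11.3 CPM in MS and 12.4, 11.4 and 15.7 CPM in MS+EA. Its MS rats also lay below all Control rats (log2 fold change −0.40, SE 0.15, edgeR's adjusted p 0.371), and its MS+EA rats overlapped both groups. Hist1h2an differed in another way, with 4.17, 4.27 and 3.23 CPM in Control, 3.27, 3.82 and 2.89 CPM in MS and 5.97, 4.15 and 5.25 CPM in MS+EA. Its MS+EA rats lay above all MS rats (log2 fold change 0.62, SE 0.22, edgeR's unadjusted p 0.0141, adjusted p 0.300). The other 7 tested H2A genes lay between 0.208 and 2.87 CPM in single rats.

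H2B genes showed no shared direction. In MS against Control 5 of the 8 tested members were above 0 and 3 below, with a median log2 fold change of 0.03. Hist1h2bh, which holds most H2B counts, was at 45.7, 43.5 and 41.5 CPM in Control, 45.4, 53.7 and 41.0 CPM in MS and 50.8, 42.4 and 52.4 CPM in MS+EA. The groups overlapped, and its log2 fold changes were 0.10, 0.06 and 0.15 (SE 0.11 each) in MS against Control, MS+EA against MS and MS+EA against Control. Hist3h2ba was at 9.63, 8.96 and 7.21 CPM in Control, 6.53, 8.38 and 7.70 CPM in MS and 6.80, 7.97 and 7.95 CPM in MS+EA, with all groups overlapping. Hist1h2bo stood apart at a low level, with 2.03, 1.40 and 1.87 CPM in Control, 1.34, 1.38 and 1.02 CPM in MS and 0.763, 0.871 and 0.795 CPM in MS+EA. The 3 groups of Hist1h2bo did not overlap in any of the comparisons. In MS+EA against Control its log2 fold change was −1.12 (SE 0.33, edgeR's unadjusted p 0.00470, adjusted p 0.0648). When genes had to reach 10 counts in all 9 libraries its adjusted p by edgeR was 0.0416, and Hist1h2bo was then called. Over the 15 alternatives that gave an adjusted p for it, this p ranged up to 0.218.

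H2A and H2B genes often lie head to head and share the stretch of DNA between their starts. Among the members with a RefSeq promoter window (GRCr8), 4 such pairs were found, and the stretches between their annotated starts are shown because each serves 1 H2A and 1 H2B gene whose values can be set side by side. Letters are the plus strand of GRCr8, and capitals mark the octamer (ATTTGCAT or its reverse complement ATGCAAAT), known in H2B promoters, and the CCAAT box (CCAAT or ATTGG). The pairs lie at chr10:44233066-44233282 (Hist3h2bb to the left and Hist3h2a to the right), chr2:186469227-186469451 (Hist2h2ac and Hist2h2be), chr17:47413790-47414052 (Hist1h2bo and Hist1h2ai) and chr17:41599673-41599911 (Hist1h2aa and Hist1h2ba).
Hist3h2bb/Hist3h2a: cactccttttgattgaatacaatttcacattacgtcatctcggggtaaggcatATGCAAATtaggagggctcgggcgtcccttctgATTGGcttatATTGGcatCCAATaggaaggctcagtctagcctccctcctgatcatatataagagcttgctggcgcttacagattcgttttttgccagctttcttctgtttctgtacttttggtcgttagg
Hist2h2ac/Hist2h2be: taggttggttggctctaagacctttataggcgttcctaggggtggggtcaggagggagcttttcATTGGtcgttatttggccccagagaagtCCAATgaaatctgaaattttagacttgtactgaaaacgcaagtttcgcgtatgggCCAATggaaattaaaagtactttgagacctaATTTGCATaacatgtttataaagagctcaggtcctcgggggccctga
Hist1h2bo/Hist1h2ai: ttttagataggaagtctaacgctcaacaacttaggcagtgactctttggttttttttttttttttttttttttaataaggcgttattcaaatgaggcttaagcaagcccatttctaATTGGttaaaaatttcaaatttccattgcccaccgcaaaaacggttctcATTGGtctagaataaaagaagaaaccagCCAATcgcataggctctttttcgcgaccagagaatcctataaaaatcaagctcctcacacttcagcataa
Hist1h2aa/Hist1h2ba: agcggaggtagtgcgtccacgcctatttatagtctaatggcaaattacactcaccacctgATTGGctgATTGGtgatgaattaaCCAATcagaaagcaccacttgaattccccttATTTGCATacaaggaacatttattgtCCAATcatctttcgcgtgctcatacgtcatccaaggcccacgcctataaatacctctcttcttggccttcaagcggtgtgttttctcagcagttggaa

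The stretches are 217, 225, 263 and 239 bases long in this order. The octamer occurs once in each except that of Hist1h2bo and Hist1h2ai, where these letters are absent, and the CCAAT box occurs 3 times in each except that of Hist1h2aa and Hist1h2ba, where it occurs 4 times. Windows from 250 bases before to 50 after the start held the octamer on either strand for 6 of 15 H2A and 5 of 9 H2B members, against 1.78% of all 33469 windows. The CCAAT box was in 12 of 15 H2A and 9 of 9 H2B windows, against 37.5% of all, and the TATA box letters TATAAA or TTTATA were in 19 of the 33 windows of members, against 14.2% of all. The paired genes share sequence, so their windows are not separate cases, and a match of letters is no evidence of binding.

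Genes of a pair need not lean the same way between groups. Beside Hist3h2a at 44.6 to 66.2 CPM, its partner Hist3h2bb was at 0.375, 0.366 and 0.373 CPM in Control, 0.816, 0.375 and 0.421 CPM in MS and 0.347, 0.737 and 0.636 CPM in MS+EA. The partners leaned to opposite sides in MS against Control, with log2 fold changes of −0.27 (SE 0.09) for Hist3h2a and 0.53 (SE 0.50) for Hist3h2bb, neither past the thresholds. Beside Hist1h2bo, Hist1h2ai was at 1.71, 1.04 and 1.18 CPM in Control, 0.991, 1.19 and 0.601 CPM in MS and 0.902, 0.804 and 2.46 CPM in MS+EA. In MS+EA against Control the log2 fold change was 0.06 (SE 0.46) for Hist1h2ai and −1.12 (SE 0.33) for Hist1h2bo. Hist2h2be lay between 3.35 and 5.25 CPM and Hist2h2ac between 0.241 and 1.06 CPM, each with overlapping groups. Hist1h2aa and Hist1h2ba were not tested, with sums of 21 and 15 counts over the 9 rats.

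The 3 tested linker histone H1 genes of the clusters had their lowest group means in MS+EA rats. Hist1h1d was at 23.1, 18.2 and 24.8 CPM in Control, 18.2, 18.5 and 17.7 CPM in MS and 17.7, 14.3 and 17.5 CPM in MS+EA. All MS+EA rats lay below all Control rats. The log2 fold change was −0.28 in MS against Control (SE 0.13, edgeR's adjusted p 0.462) and −0.42 in MS+EA against Control (SE 0.13, edgeR's unadjusted p 0.00728, adjusted p 0.0804). DESeq2 gave the latter an adjusted p of 0.0408, at a fold change under 1.5. Hist1h1b was at 5.62, 5.43 and 4.04 CPM in Control, 5.13, 4.38 and 3.91 CPM in MS and 3.89, 4.62 and 3.97 CPM in MS+EA, and Hist1h1a lay between 3.10 and 5.57 CPM. All 3 tested H1 genes of the clusters had log2 fold changes below 0 in each of the 3 comparisons, with medians of −0.17, −0.13 and −0.27, and none passed the thresholds. The signs in MS+EA against Control follow from those of the other comparisons and are no separate result. Over 16 alternatives Hist1h1a changed sign in 2 for MS against Control and in 1 for MS+EA against Control. Hist1h1b did so in 1 for MS+EA against MS. Of the H3 genes of the clusters, Hist2h3c2 was at 1.23, 0.488 and 0.311 CPM in Control, 0.641, 0.438 and 0.541 CPM in MS and 0.624, 0.0670 and 1.19 CPM in MS+EA. Hist3h3, not tested, was at 0, 0.732 and 0.187 CPM in Control, 0.350, 0.250 and 0.421 CPM in MS and 0.555, 0.201 and 0.715 CPM in MS+EA. Both overlapped between all groups.

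Among replacement histones, H3f3b, a gene for the H3.3 protein that takes the place of H3 in the chromatin of neurons with age, was highest in MS+EA rats. It was at 106, 109 and 106 CPM in Control, 101, 133 and 125 CPM in MS and 132, 135 and 152 CPM in MS+EA. Every MS+EA rat lay above every Control rat, and the MS rats, at 101 to 133 CPM, overlapped both other groups. The log2 fold change was 0.16 in MS against Control (SE 0.10, edgeR's adjusted p 0.574), 0.22 in MS+EA against MS (SE 0.10, edgeR's unadjusted p 0.0377, adjusted p 0.369) and 0.38 in MS+EA against Control (SE 0.10, edgeR's adjusted p 0.0394). At a ratio of 1.30 the last difference did not reach the fold threshold, and its adjusted p ranged from 0.00487 to 0.145 over 16 alternatives, under 0.05 in 10 of them.

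H3f3c, typed as mRNA in the deposited table and as a pseudogene in the RefSeq annotation of GRCr8, did not follow H3f3b. It was at 10.9, 6.28 and 5.97 CPM in Control, 6.998, 3.44 and 2.59 CPM in MS and 7.56, 2.41 and 3.34 CPM in MS+EA. In each group 1 rat (A1, B3 and C3) was well above the other two, and the groups overlapped. The log2 fold change was −0.83 in MS against Control (SE 0.42, edgeR's adjusted p 0.511) and −0.80 in MS+EA against Control (SE 0.43, edgeR's adjusted p 0.292). Reads of H3.3 genes and their processed copies cannot be told apart where they are identical.

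The H2A variants differed less between groups. H2afz, for H2A.Z at promoters and enhancers, was at 24.6, 28.5 and 25.9 CPM in Control, 28.3, 36.4 and 30.3 CPM in MS and 27.1, 32.4 and 29.9 CPM in MS+EA, and its log2 fold change of 0.27 in MS against Control (SE 0.11) had an adjusted p of 0.441 by edgeR. H2afy, for macroH2A1, a variant of silent chromatin, was at 54.4, 49.8 and 52.1 CPM in Control, 47.8, 47.1 and 50.3 CPM in MS and 44.0, 42.1 and 51.7 CPM in MS+EA. H2afy2, for macroH2A2, was at 18.4, 19.1 and 16.9 CPM in Control, 17.2, 18.5 and 20.1 CPM in MS and 18.2, 19.6 and 21.6 CPM in MS+EA. These 3 genes overlapped between all groups. H2afx, for the variant that is phosphorylated at DNA breaks, was at 18.3, 11.95 and 13.2 CPM in Control, 14.6, 15.1 and 15.9 CPM in MS and 13.9, 12.1 and 19.6 CPM in MS+EA. This gene is known to give both stem-loop and polyadenylated mRNAs, and its groups overlapped as well.

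The linker variants were also without a called difference. H1f0, for H1.0, which builds up in cells that have stopped dividing, was at 38.3, 44.7 and 37.3 CPM in Control, 36.1, 47.4 and 37.3 CPM in MS and 38.1, 42.0 and 38.0 CPM in MS+EA. Its log2 fold changes of 0.01, −0.03 and −0.03 (SE 0.11 each) were the smallest set of the replacement histones. H1fx was at 8.40, 6.95 and 5.78 CPM in Control, 7.87, 7.82 and 4.99 CPM in MS and 5.76, 5.96 and 5.64 CPM in MS+EA, with the narrowest spread in MS+EA and overlapping groups.

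**Figure D3:**
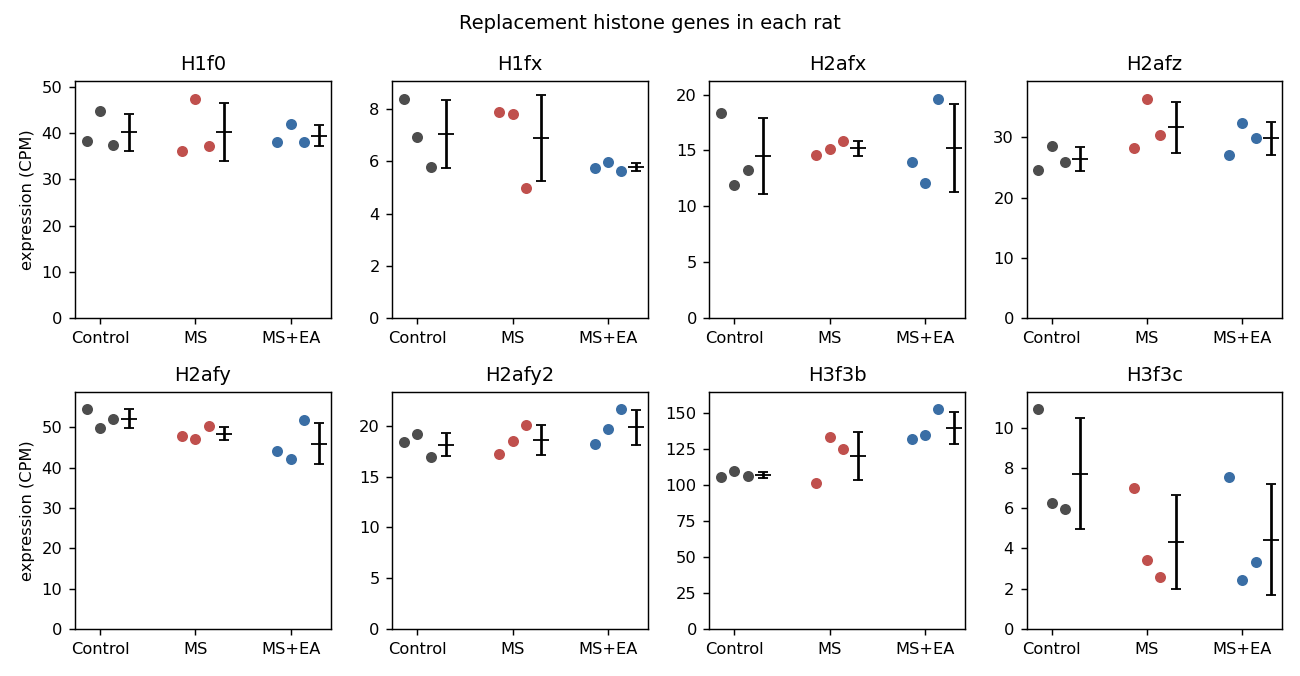
Level of each of the 8 replacement histone genes (CPM) in each rat, with the mean and SD of each group (n = 3) and each axis starting at 0. Only H3f3b separates 2 groups, with MS+EA at 132 to 152 CPM and Control at 106 to 109 CPM.

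Counted over all members, the calls were few. In MS against Control, edgeR called 0 of the 34 tested histone genes and 0.0238% of all genes tested, and DESeq2 also called 0. At an unadjusted p under 0.05, 1 histone gene was higher (H2afz) and 4 were lower (Hist2h4, Hist3h2a, Hist1h2ao and Hist1h1d), against 7.06% and 3.55% of all genes. The groups did not overlap for 1 histone gene that was higher (Hist3h2bb) and 4 that were lower (Hist2h4, Hist3h2a, Hist1h2ao and Hist1h2bo), against 10% and 7.53% of all genes. Of the 26 tested replication-dependent genes 19 were below 0 and 7 above, with a median log2 fold change of −0.23, and of the 8 replacement genes 3 were below and 5 above, with a median of 0.02. The lowest value of all 34 belonged to a replacement gene, H3f3c, and the classes were not tested against each other.

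In MS+EA against MS, edgeR called 1 of the 34, Hist2h4a, and 0.0178% of all genes. Hist2h4a passed the filter on low counts through the MS+EA rats alone, so its call cannot be weighed against that share. At an unadjusted p under 0.05, 3 histone genes were higher (Hist2h4a, Hist1h2an and H3f3b) and 0 lower, against 6.01% and 6.42% of all genes. The groups did not overlap for 4 histone genes that were higher (Hist2h4a, Hist1h2an, Hist2h2ab and Hist3h2a) and 1 that was lower (Hist1h2bo), against 8.27% and 9.60%. Without Hist2h4a the other 25 tested replication-dependent genes had 15 values above 0 and 10 below, with a median log2 fold change of 0.06.

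In MS+EA against Control, edgeR called 1 of the 34, again Hist2h4a through the same MS+EA counts, and 1.37% of all genes. By the adjusted p alone H3f3b and Hist2h4 were added, which made 3 of 34, against 5.40% of all genes. At an unadjusted p under 0.05, 2 histone genes were higher (Hist2h4a and H3f3b) and 3 lower (Hist2h4, Hist1h2bo and Hist1h1d), against 11.9% and 10.6%. The groups did not overlap for 2 that were higher (the same 2 genes) and 4 that were lower (Hist2h4, Hist1h2bo, Hist1h1d and Hist1h2bk), against 13.0% and 12.9%. In MS+EA against Control the shares of histone genes by the unadjusted p and by the separation of groups were no larger than those of all genes. In the other comparisons some shares were larger, such as that of lower genes in MS against Control, and these differences were not tested. The comparisons share the rats of a group, and the counts are not independent of each other.

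**Figure D4:**
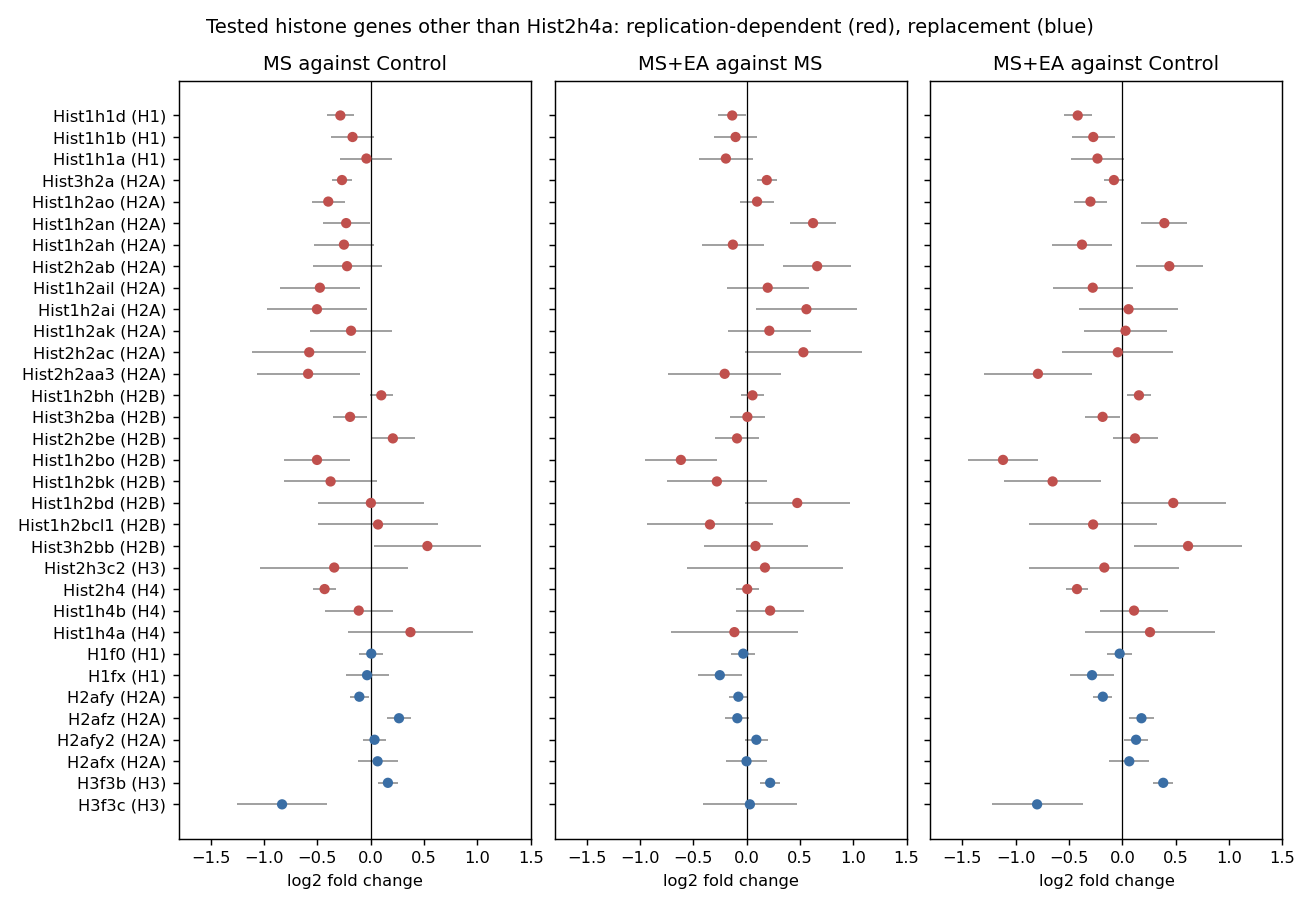
Log2 fold change with its SE (horizontal bars, edgeR) for the 33 tested histone genes other than Hist2h4a in the 3 comparisons, with replication-dependent genes in red and replacement genes in blue, by family. All 10 red H2A points lie left of 0 in MS against Control, and Hist1h2bo lies farthest left in MS+EA against Control at −1.12.

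Factors that process and degrade replication-dependent histone mRNA were given from a list of 18 gene symbols, of which 15 were in the table and tested (Symk, Srrt and Tut7 had no row of that name). EdgeR called 0 of the 15 in each comparison, with 2, 2 and 4 genes at an unadjusted p under 0.05 in MS against Control, MS+EA against MS and MS+EA against Control, beside 10.6%, 12.4% and 22.5% of all genes tested. Lsm11, a protein of the U7 particle that cuts histone pre-mRNA, was at 86.2 ± 1.95 CPM in Control, 102 ± 0.766 CPM in MS and 78.8 ± 3.64 CPM in MS+EA (SD, n = 3). Its log2 fold change was 0.24 in MS against Control (edgeR's adjusted p 0.185) and −0.37 in MS+EA against MS (edgeR's unadjusted p 6.52e-05, adjusted p 0.122). Casp8ap2 (FLASH), which works with Lsm11, was at 26.6 ± 1.63, 31.7 ± 0.988 and 35.6 ± 4.31 CPM (SD, n = 3). Its log2 fold change of 0.42 in MS+EA against Control had an adjusted p of 0.0349 by edgeR, at a fold change under 1.5. Slbp, which binds the stem-loop, was at 14.3 ± 1.09, 16.4 ± 1.33 and 17.5 ± 2.13 CPM (SD, n = 3). Cstf2, a cleavage factor, had log2 fold changes of 0.26 in MS+EA against MS and 0.34 in MS+EA against Control, neither past the adjusted p.

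Histone chaperones and exchange factors numbered 27 on the list, 26 in the table and 25 tested. EdgeR called 0 of them in each comparison, with 3, 1 and 5 at an unadjusted p under 0.05, beside the same 10.6%, 12.4% and 22.5% of all genes. Atrx, which places H3.3 at repeats together with Daxx, was at 206 ± 2.22 CPM in Control, 250.0 ± 18.3 CPM in MS and 269.9 ± 38.5 CPM in MS+EA (SD, n = 3). In MS+EA against Control its log2 fold change was 0.39 (edgeR's adjusted p 0.0332, fold change under 1.5). Daxx itself was at 25.5 ± 0.803, 24.2 ± 0.645 and 23.8 ± 1.47 CPM (SD, n = 3). Hira, which places H3.3 at active genes, had a log2 fold change of 0.32 in MS+EA against MS (edgeR's adjusted p 0.376). The nucleosome assembly proteins Nap1l5 and Nap1l1 had log2 fold changes of 0.34 in MS against Control and 0.29 in MS+EA against Control (edgeR's adjusted p 0.197 and 0.0522). Npm1, a nucleolar chaperone, was at 50.1 ± 6.62, 50.8 ± 4.04 and 58.7 ± 6.25 CPM (SD, n = 3).

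Genes of S phase and proliferation, 24 on the list and 22 tested, gave 0 calls by edgeR in each comparison, with 0, 3 and 2 at an unadjusted p under 0.05 (10.6%, 12.4% and 22.5% of all genes). Their median log2 fold change was 0.01, 0.22 and 0.26 in MS against Control, MS+EA against MS and MS+EA against Control. Mcm4, a subunit of the replicative helicase, was at 18.4 ± 0.889, 16.7 ± 2.71 and 22.4 ± 1.45 CPM (SD, n = 3), and its MS+EA to MS log2 fold change was 0.42 (edgeR's adjusted p 0.245). Top2a, a topoisomerase of dividing cells, was at 0.818 ± 0.237, 0.527 ± 0.249 and 1.34 ± 0.922 CPM (SD, n = 3), and its MS+EA to MS log2 fold change was 1.32 (edgeR's adjusted p 0.367). Ccne2, a cyclin of S phase entry, was at 5.16 ± 2.43, 6.83 ± 0.828 and 7.86 ± 1.38 CPM (SD, n = 3), and Mcm6, another helicase subunit, at 2.87 ± 0.463, 3.77 ± 1.04 and 3.39 ± 0.566 CPM (SD, n = 3). Values as low as those of Top2a leave little depth to detect a difference. The list summed to 102 to 110 CPM in Control, 105 to 109.8 CPM in MS and 112 to 127.5 CPM in MS+EA. The sums of MS+EA thus lay above those of both other groups, and their relation to the histone values was not tested.

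Markers of cell types moved between groups without a call by edgeR in any list. The 5 defining markers of cortical excitatory neurons were all present and summed to 3882 to 4513 CPM in Control, 3954 to 4008 CPM in MS and 3373 to 3508 CPM in MS+EA. By the adjusted p alone, 2 of these 5 were lower in MS+EA against Control. The 5 markers of oligodendrocyte precursors, dividing cells of the adult cortex, summed to 243 to 286 CPM, 239 to 290.4 CPM and 199.8 to 274 CPM in Control, MS and MS+EA. The 5 markers of mature oligodendrocytes summed to 1953 to 3016 CPM, 1675 to 2720 CPM and 1890 to 3906 CPM. Of these last 5, 5 were lower in MS against Control and 5 higher in MS+EA against MS. Their part in the histone values was not tested.

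Markers of endothelium summed to 135 to 152 CPM in Control, 182 to 218 CPM in MS and 146 to 183 CPM in MS+EA, with 5 of 5 higher in MS against Control (3 at an unadjusted p under 0.05 by edgeR) and 5 of 5 lower in MS+EA against MS (3 likewise). Those of red blood cells summed to 94.6 to 199 CPM, 223 to 306 CPM and 211 to 304 CPM, with 5 of 5 higher in MS against Control (4 at an unadjusted p under 0.05 by edgeR). Markers of interneurons (439.99 to 602 CPM in the 9 rats), astrocytes (2000.2 to 2772 CPM) and microglia (172 to 231 CPM) overlapped between all groups in their sums. Those of striatum summed to 23.5 to 32.8 CPM in Control, 22.2 to 24.9 CPM in MS and 27.5 to 32.1 CPM in MS+EA, so MS and MS+EA did not overlap, with 3 of 5 higher and 1 of them, Drd1, at an unadjusted p of 0.0110 by edgeR (adjusted p 0.286). In these lists too the part in the histone values was not tested.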

How the data were processed

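Total RNA of 9 PFC samples, 3 rats per group, was depleted of rRNA and sequenced by the authors on a HiSeq X. The submitters' processing notes name HISAT2 2.0.4 and Rnor_6.0. The authors deposited whole-number counts per gene, without normalization. The counting program, its strand setting and its treatment of reads with several locations are not given in the sources used here. The study's differential test, EBSeq, was not used here. Groups came from the labels, and the 9 libraries held 12479905 to 19007907 counts.

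Counts were analysed in R 4.3.3 with edgeR 4.0.16. Genes were kept by filterByExpr (minimum count 10), scaled by TMM and fitted with a mean per group over all 9 rats, and the quasi-likelihood F test was used for contrasts with Benjamini-Hochberg adjustment over 16837 genes. The biological coefficient of variation was 12.7%. The thresholds of the study were applied (adjusted p under 0.05, fold change above 1.5). A value of 3 counts was the detection floor. Intervals and floors cover counting error only. The counts of any 2 rats of a group differed by 6.12 to 13.4 times the counting variance, so each rat was kept as a replicate. Summed levels are sums of CPM over the members. The fitting script was tested on simulated data.

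Genes given rat by rat were, by rule, all H4 and all replacement genes, all called genes, the top 2 replication-dependent genes of each family by mean CPM, genes at an unadjusted p under 0.05 (up to 5 per direction and comparison), and, as group means or fold changes, the 2 genes of smallest p per pathway list and comparison, since none was called. Partners in the gene pairs and the genes Slbp, Daxx and Drd1 were added after their values were seen. The members and lists were chosen with earlier results of these data known. Alternatives were DESeq2 1.42.0, scaling by RLE or by total counts, a looser filter (1 count in all) and a stricter one (10 counts in each library), a fit of the 6 rats compared, bias-adjusted deviances, no fold threshold and leaving out every rat once. Promoter windows came from RefSeq (GRCr8), matched by symbol or older symbol. Of the 42 members 36 matched 1 gene and 33 had a window. Hist1h1d, Hist2h2aa3, Hist1h2bh and H2afx matched several genes, Hist1h4a and Hist2h4a none. Tables were made in Python 3.11.15 (numpy 2.4.6, pandas 2.3.3) and plots with matplotlib 3.10.9.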

Additional observations from a re-analysis of the deposited data

How the results depend on the processing

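Calls by edgeR were 0, 1 and 1 histone genes in MS against Control, MS+EA against MS and MS+EA against Control. With DESeq2 the count in MS+EA against MS was 0, because it gave an adjusted p to 6 of the tested members and NA to Hist2h4a. With at least 10 counts in every rat it was 0 as well, since this filter removes Hist2h4a and leaves 25 members. Under the same filter the count in MS+EA against Control stayed at 1, but the gene called was Hist1h2bo in place of Hist2h4a. Without the fold threshold MS+EA against Control had 3. Omission of each rat in turn left 0, 1 and 1, with a highest adjusted p of 1.44e-04 (edgeR) for Hist2h4a against MS, whose fitted fold change depends on the prior count and is not given. Hist2h4a entered these fits through the MS+EA rats alone, so its repeated call is no separate support. For Hist2h4 in MS against Control the adjusted p was 0.0264 with DESeq2 and 0.0271 by edgeR with a filter of at least 1 count, at a fold change under 1.5.

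The log2 ratio of summed replication-dependent levels in MS+EA against Control was −0.057, and 0.065 as a mean of log2(CPM + 0.5). Without Hist2h4a it was −0.13, and that in MS+EA against MS was 0.079 instead of 0.15. For replacement histones it was 0.062, 0.073 and 0.14 in MS against Control, MS+EA against MS and MS+EA against Control. As a mean of log2 values it was −0.055 in MS against Control and −0.068 in MS+EA against Control, and without H3f3b it was −0.044 in MS+EA against MS and −0.049 in MS+EA against Control. Without single rats the ranges were −0.28 to −0.16, 0.11 to 0.22 and −0.09 to 0.00 for the replication-dependent and 0.00 to 0.12, 0.01 to 0.14 and 0.08 to 0.17 for the replacement class. The cause of these shifts was not tested. Over 16 alternatives 13, 20 and 10 of the 34 tested members changed sign at least once, none with a log2 fold change above 0.56 in size. Other scalings moved the median of all genes by at most 0.04. No paired analysis was possible because the groups hold different animals and share no replicate names.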
